A study of Rattus norvegicus with 12 samples.

Results

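Oxidative phosphorylation subunits are the proteins of the respiratory chain and the ATP synthase in the inner mitochondrial membrane. The nuclear genes for them were taken by symbol from the probe annotation of the array: complex I (Nduf), complex II (Sdh), complex III (Uqcr), complex IV (Cox subunits), ATP synthase (Atp5) and cytochrome c (Cycs). This gave 61 genes, 1 probe each, of 13337 named genes on the array. Of these, 58 were bright enough to be tested, among 11695 genes tested in all.

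The tumours grew in the brains of syngeneic female Fischer rats aged 4 to 6 weeks, from 9L cells, a rat gliosarcoma line. The 9L.EGFRvIII cells carried EGFRvIII, the EGF receptor variant that lacks part of its ligand-binding domain and signals without ligand, and the 9L.EV cells carried the empty vector (EV). Both had been made with the plasmid pcDNA3.1(+) and selected with zeocin, were injected into the cortex with no further treatment, and gave 6 tumours each, 1 per rat, removed after 3 weeks. The labels name 1 line per group and do not say whether it was a clone, so the 6 rats repeat the implantation and not the introduction of EGFRvIII. RNA of each whole tumour was hybridised to 1 Illumina RatRef-12 bead array. In such bulk samples, fewer cells of a type and less RNA per cell cannot be told apart.

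Complexes I and II take electrons from NADH and succinate and pass them through coenzyme Q to complex III, and cytochrome c carries them on to complex IV, which reduces oxygen. Complexes I, III and IV pump protons, and the ATP synthase lets the protons flow back to make ATP. Core subunits hold the cofactors, while the many small accessory subunits stabilise the complexes, and a few subunits of complex IV have muscle or testis isoforms. Nuclear respiratory factor 1 (NRF1), the ETS factor GABP and YY1 are known regulators of many of these genes, and MEF2 factors act on muscle genes.

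Letters based on the known binding sites of these factors were sought on both strands of the RefSeq promoter windows (build GRCr8, 250 bases before to 50 after the annotated start). Of the 61 genes, 54 had a window. The NRF1 letters GCGCANGCG were in 31.5% of the 54 windows, against 6.26% of all 27457 gene windows. The ETS letters CCGGAAG were in 29.6% against 9.22%, and the YY1 letters AANATGGCG were in 18.5% against 3.33%. At least 1 of these 3 was in 35 of the 54 windows (64.8%), against 16.4% of all windows. The MEF2 letters CTANNNNTA were in 16.7% of the subunit windows and 22.2% of all windows. Here N stands for any base, so these MEF2 letters are loose. A match to them need not be a sequence that MEF2 binds. Subunit windows had a median of 20 CpG dinucleotides, against 7 over all windows, so letters that contain CG had more chance to occur in them.

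**Figure D1:**
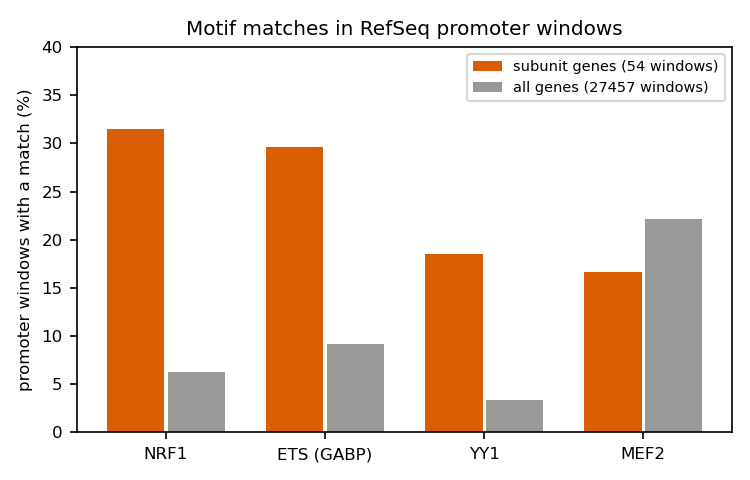
Share of RefSeq promoter windows (%, y axis) with at least 1 match to the letters of each factor (x axis), for 54 subunit genes (orange) and 27457 genes in all (grey). The NRF1 letters were in 31.5% of subunit windows against 6.26%, and the MEF2 letters in 16.7% against 22.2%.

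The following stretches of 30 bases show such matches upstream of the start used by the window, 5′ to 3′, with the match to the named factor in capitals. Letters of another factor stay in lower case, as do the MEF2 letters that open the stretch of Atp5pf. The first 3 belong to genes called higher in EGFRvIII tumours, and the other 6 to genes that were low in EV rat 3, and except for Cycs also in EGFRvIII rat 6, as described further on.
Cox6a2, MEF2 letters (overlapping on both strands), chr1:192219747-192219776, minus strand: gagaaagtccCTAAAAATAGccatccatgt
Ndufs5, NRF1 letters, chr5:141264513-141264542, minus strand: ggccgctggctGCGCAGGCGcaaaccgctc
Sdhb, ETS letters, chr5:158547814-158547843, plus strand: ttactcgggataCCGGAAGctgccttccac
Ndufa11, NRF1 letters in overlapping copies, chr9:1637510-1637539, plus strand: gcgctgtGCGCATGCGCATGCGCacaggcc
Atp5me, NRF1 letters, chr14:1464774-1464803, plus strand: ttgcgctacgGCGCATGCGCtttcctggct
Cycs, NRF1 letters, chr4:80984907-80984936, minus strand: ccatgctagccCGCATGCGCgcgcaccttg
Cox5b, ETS letters, chr9:46417807-46417836, plus strand: cttgctctgtctgttcCCGGAAGtgcatct
Ndufb7, ETS letters, chr19:41477292-41477321, minus strand: gcgggctagatgacCCGGAAGtcactgaag
Atp5pf, YY1 letters, chr11:37375194-37375223, minus strand: taagtgtaggaAAGATGGCGgagtcttagc

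The window of Cox6a2, the muscle isoform of a complex IV subunit, held the MEF2 letters and none of the NRF1, ETS or YY1 letters, and had 5 CpG dinucleotides. Those of Cox5a and Atp5f1d, both also called higher, held no match to any of the 4. For 18 of the 54 genes the RefSeq gene reaches upstream of the start that the window uses, so these windows describe 1 of several possible starts. They include Cox6a2, Ndufs5, Sdhb, Atp5f1d, Atp5me, Atp5pf and Cox5b. A match is only a run of letters, and no binding was measured.

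EGFRvIII arrays were dimmer before normalization. The 75th percentile of the signal was 98.7 to 121 on EGFRvIII arrays and 129 to 155 on EV arrays, and 11182 to 12040 and 11720 to 12719 of 22523 probes were detected. The number of arrays limits the precision. Correlations between arrays were 0.954 to 0.991 within EGFRvIII, 0.925 to 0.985 within EV and 0.897 to 0.972 between the groups. The rat Egfr probe was near background, at 4.25 to 4.55 in EGFRvIII and 4.41 to 4.56 in EV tumours on the log2 scale, and so gave no check of the labels. Markers of other cells moved with the groups: 4 of 12 tested macrophage and microglia markers (33.3%) were called higher and 0 lower. Of 9 endothelial markers, 6 (66.7%) were called lower and 0 higher. Over all genes tested, 11.1% were called higher and 10.4% lower. Of 7 tested astrocyte markers, 2 (28.6%) were called lower (Clu and Gja1) and 0 higher, with a median change of -0.82. Of 11 tested neuron markers 0 were called in limma, with 0 at an unadjusted p under 0.05 and a median of -0.88. The mean level of the macrophage list was 8.53 to 9.75 in EGFRvIII and 7.02 to 8.59 in EV tumours, and that of the endothelial list 6.59 to 7.45 in EGFRvIII and 7.57 to 7.91 in EV tumours. Cd163 and Cdh5 of these lists were too dim to test. Their part in the results was not tested. Neuron markers stood highest in EGFRvIII rat 1 (1.39 above their 12-array mean, log2, other EGFRvIII tumours -1.15 to -0.07) and in EV rat 2 (2.54, other EV tumours -1.06 to 0.95). Member counts without these tumours are given below.

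With quantile normalization, the share of oxidative phosphorylation genes called higher in EGFRvIII tumours was near that of all genes. No member was called lower, and counts under other scalings are given below. Levels are log2 signals after background correction and quantile normalization, and a gene was called when its Benjamini-Hochberg adjusted p over all 11695 genes was under 0.05 in limma. At this threshold, 5 of 58 (8.62%) were called higher in EGFRvIII tumours, against 11.1% of all genes tested, and 0 of 58 were called lower, against 10.4%. The 5 were Cox6a2, Atp5f1d, Cox5a, Ndufs5 and Sdhb, from complexes I, II, IV and the ATP synthase. At an unadjusted p under 0.05 in limma, 8 members (13.8%) passed, all of them higher, against 34.6% of all genes. The other 53 were not called.

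Changes of the members were small with quantile normalization. Of the 58 log2 changes, EGFRvIII minus EV, 47 (81.0%) lay within 0.25 of 0, against 53.4% of all genes. The median was 0.08 over the members and 0.01 over all genes, and 40 of 58 (69.0%) were above 0, against 51.6%. The members' median depended on single tumours: it was 0.15 without EGFRvIII rat 6, 0.04 without EGFRvIII rat 2 and -0.0028 without EV rat 3. Without EV rat 3, 5 of 58 members were called higher (all genes 10.4%) and 0 lower (all genes 8.86%). Without both EV rat 3 and EGFRvIII rat 6 the median was 0.08. In this setting 7 of 58 members were called higher (all genes 11.7%) and 1, Cox8a, lower (all genes 9.56%). Without EGFRvIII rat 1 and EV rat 2, the tumours highest in neuron markers, 3 members were called higher (all genes 9.49%). The count was also 3 without EGFRvIII rat 2 (all genes 8.82%) or without EGFRvIII rat 3 (all genes 9.58%).

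How the arrays were brought to a common scale moved these counts. With quantile normalization, 1299 genes were called higher and 1220 lower (51.6% of calls higher). With each array scaled to the median of all probes, 768 were higher and 1799 lower (29.9%). In this setting 4 members (6.9%) were called higher, against 6.57% of all genes. With each array scaled to the median of the probes kept, a choice made after seeing the data, 2157 were higher and 1005 lower (68.2%), and 17 members (29.3%) were called higher, against 18.4% of all genes. The median of all genes was shifted to -0.08 and 0.11 by these scalings. Relative to it, the members' median stood 0.07 higher in the quantile-normalized values and 0.19 higher in either scaling. Both scalings add a constant to each array, so they differ by the same shift for every gene. The equal 0.19 is therefore not a second result. Values given below for arrays scaled to the probes kept carry that shift in every gene. None of the 3 scalings gave a member called lower.

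**Figure D2:**
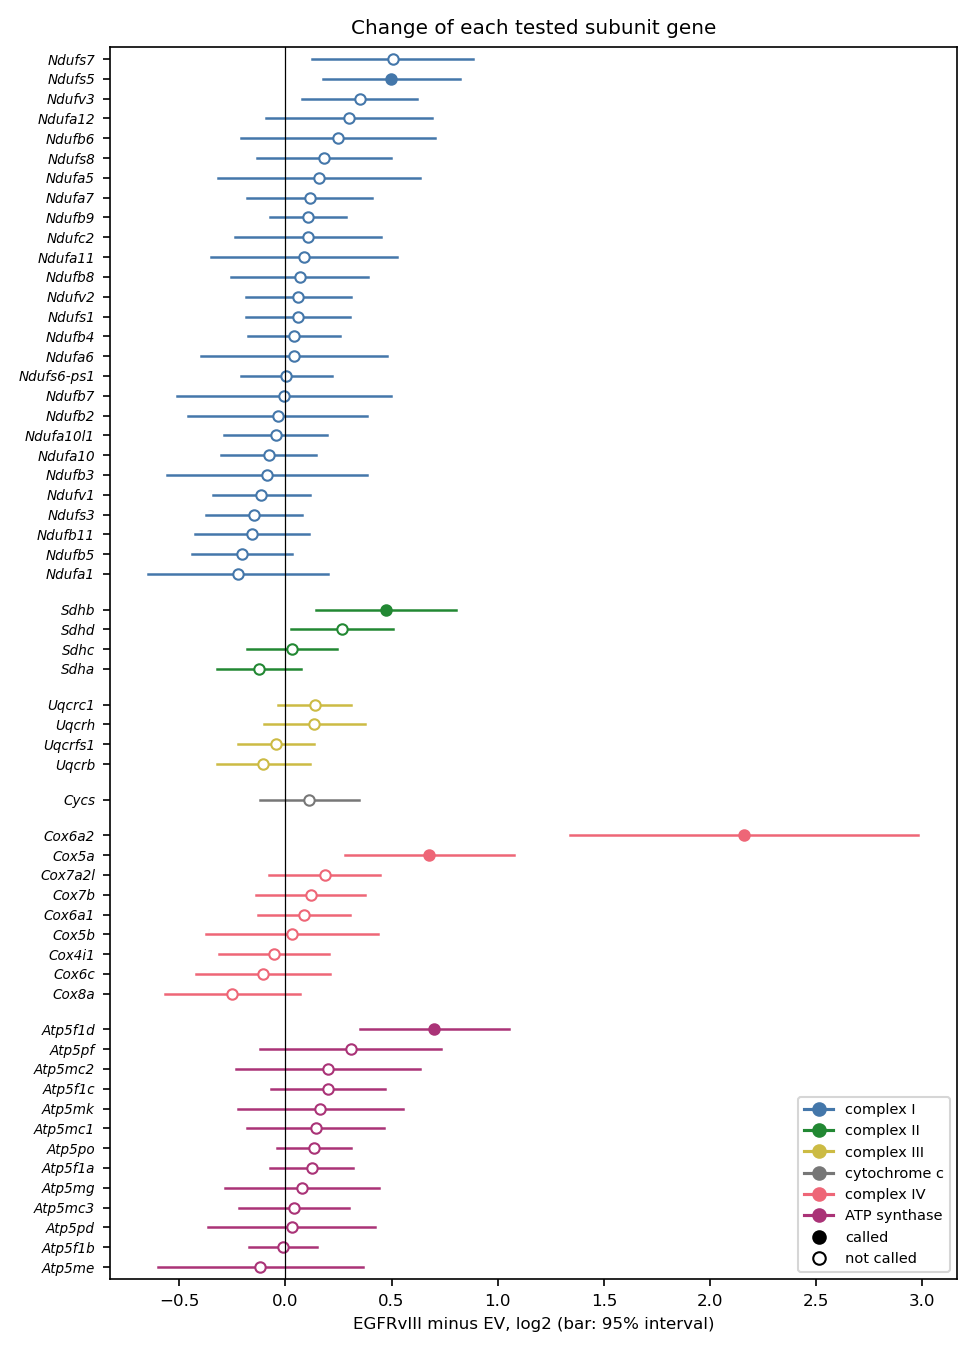
Change of each of the 58 tested subunit genes (x axis, EGFRvIII minus EV, log2, point with 95% interval), grouped and coloured by complex and ordered by change. Filled points are the 5 genes called higher, among which Cox6a2 at 2.16 lies apart from all others, and most intervals include 0.

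Complex I had 27 tested genes, with a median change of 0.06. Of these, 1 was called higher (3.7%, against 11.1% of all genes) and 0 lower (against 10.4%). Its 6 tested core subunits carry the flavin and the iron-sulfur clusters or join the parts that do. None of the core genes was called, and their changes ran from -0.15 to 0.51. The largest was that of Ndufs7, an iron-sulfur subunit next to the coenzyme Q site. Ndufs7 had a lowest, median and highest level of 9.35, 9.49 and 9.96 in EGFRvIII tumours and 8.25, 9.14 and 9.41 in EV tumours. The groups overlapped by a small margin, since the lowest EGFRvIII tumour lay under the highest EV tumour, and EV rat 3 was far below the rest. Its change was 0.51 ± 0.18 (SE, limma adjusted p = 0.0562), just outside the threshold. It was called higher under 6 of 25 other settings.

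Among the 20 tested accessory subunits of complex I, Ndufs5 was the only one called with quantile normalization. It is a small subunit on the intermembrane side. Ndufs5 levels were 11.30, 11.54 and 11.78 (lowest, median, highest) in EGFRvIII tumours and 10.43, 11.13 and 11.43 in EV tumours. EGFRvIII rats 5 and 6 lay under the highest EV tumour, and the other 4 above it. The change was 0.50 ± 0.15 (SE), or 1.41-fold, with a limma adjusted p of 0.0294. The call was lost under 8 of 25 other settings, with changes between 0.31 and 0.75.

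The accessory subunit Ndufv3 came next, at 7.21 ± 0.17 in EGFRvIII and 6.86 ± 0.20 in EV tumours (SD, n = 6 each), a change of 0.35 ± 0.13 with a limma adjusted p of 0.0646. It was called higher under 4 of 25 other settings. The lowest point estimate of complex I was that of Ndufa1, an X-linked accessory subunit, at -0.22 with a 95% interval of -0.65 to 0.20. The next was Ndufb5 at -0.20 (95% interval -0.44 to 0.03), which turned to 0.11 when arrays were scaled to the probes kept. The intervals of the accessory subunits differed in width. For Ndufb7, low in both EGFRvIII rat 6 and EV rat 3, the change was -0.01 and the interval -0.51 to 0.50. For Ndufb9 the change was 0.11 with an interval of -0.07 to 0.28, and it was called higher when arrays were scaled to the probes kept.

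Ndufa10 and Ndufa10l1 are near copies, so their probes may share signal. They changed by -0.08 and -0.05 and were not called. The entry Ndufs6-ps1 is annotated as a pseudogene and sat close to background, at 4.87 ± 0.10 in EGFRvIII and 4.86 ± 0.20 in EV tumours (SD, n = 6 each, where the offset alone gives 4). Ndufs4, an accessory subunit, was detected on 0 of 12 arrays and was not tested.

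Complex II is the only complex that also serves the tricarboxylic acid cycle. Of its 4 genes, 1 was called higher (25%, against 11.1% of all genes), and the median change was 0.15. Sdhb, the iron-sulfur subunit, had a lowest, median and highest level of 10.90, 11.02 and 11.23 in EGFRvIII tumours and 9.80, 10.70 and 10.80 in EV tumours. Every EGFRvIII tumour lay above every EV tumour. The change was 0.47 ± 0.15 (SE), or 1.39-fold, with a limma adjusted p of 0.0406. This call was lost under 11 of 25 other settings, with adjusted p up to 0.0809 and changes of 0.29 to 0.65.

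Sdhd, a membrane anchor, was at 10.15 ± 0.09 in EGFRvIII and 9.88 ± 0.25 in EV tumours (SD, n = 6 each). Its change of 0.27 ± 0.11 was not called with quantile normalization (limma adjusted p = 0.108). Sdhd was called higher when arrays were scaled to the probes kept. The other anchor, Sdhc, changed by 0.03 with a 95% interval of -0.18 to 0.24. Sdha, the flavoprotein that oxidises succinate, changed by -0.12 (95% interval -0.32 to 0.07). The catalytic pair Sdha and Sdhb thus had point estimates of opposite sign, and a test of their difference was not made.

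Complex III was represented by 4 genes, 0 of them called (all genes 11.1% higher and 10.4% lower), with a median change of 0.05. When arrays were scaled to the probes kept, Uqcrc1 and Uqcrh were called higher (0.34 and 0.48). Uqcrc1, a core subunit, and Uqcrh, the hinge subunit beside cytochrome c1, changed by 0.14 (95% interval -0.03 to 0.31) and 0.14 (-0.10 to 0.38). Uqcrfs1, the Rieske iron-sulfur protein, changed by -0.04 (-0.23 to 0.14). Uqcrb had the lowest estimate, -0.10 (-0.32 to 0.12), and turned to 0.25 when arrays were scaled to the probes kept. Cycs, the mobile carrier between complexes III and IV, was at 11.99 ± 0.16 in EGFRvIII and 11.87 ± 0.22 in EV tumours (SD, n = 6 each), a change of 0.11 that was not called. Scaled to the probes kept, Cycs was called higher, at 0.39.

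Complex IV held the member with the largest change. Of its 9 tested genes, 2 were called higher (22.2%, against 11.1% of all genes) and 0 lower (against 10.4%). The median change was 0.09. Cox6a2 is known as the isoform of heart and skeletal muscle, while its partner Cox6a1 is used in most other tissues. Cox6a2 had a lowest, median and highest level of 5.59, 7.86 and 8.06 in EGFRvIII tumours and 4.63, 5.35 and 6.09 in EV tumours. EGFRvIII rats 1 to 5 stood between 7.70 and 8.06, above every EV tumour, and EGFRvIII rat 6 at 5.59 lay within the EV range. The probe was detected in 6 of 6 EGFRvIII tumours and 5 of 6 EV tumours.

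The change of Cox6a2 was 2.16 ± 0.38 (SE), or 4.47-fold (95% interval 1.34 to 2.98 on the log2 scale), with a limma adjusted p of 0.0016. Without EGFRvIII rat 6 it was 2.55. It was called under all 24 other settings that tested it, with changes of 2.01 to 2.80, and was not tested where detection on all 12 arrays was required. Cox6a1 stood at 13.22 ± 0.17 in EGFRvIII and 13.14 ± 0.18 in EV tumours (SD, n = 6 each), a change of 0.09 (95% interval -0.13 to 0.30). Cox6a1 was not called with quantile normalization and was called higher, at 0.44, when arrays were scaled to the probes kept.

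Other muscle genes were measured beside Cox6a2. Of 15 listed markers of skeletal and heart muscle, 13 had probes, and 4 of them, Mb, Myh4, Myh6 and Myh7, were detected on 0 of 12 arrays. Of the 4 bright enough to test, 1 was called higher, Des, an intermediate filament protein of muscle and of vessel wall cells. Des was at 8.65 ± 0.40 in EGFRvIII and 7.38 ± 0.32 in EV tumours (SD, n = 6 each, change 1.27, limma), and EGFRvIII rat 6 had the lowest of the EGFRvIII values, 7.97. Ckm, muscle creatine kinase, was detected in 4 of 6 EGFRvIII and 0 of 6 EV tumours, at 4.35 to 5.06 against 4.22 to 4.27, and was too dim to test. Myh2, a myosin heavy chain, was detected in 1 of 6 EGFRvIII and 5 of 6 EV tumours, with a change of -0.23 that was not called (limma adjusted p = 0.0977), and Tnni2, a troponin, in 1 and 4 and was too dim to test. Tnnt3 and Myl1 changed by -0.11 and 0.08 and were not called. The mean level of the 4 tested markers ranged from 6.05 to 6.44 in EGFRvIII and from 5.76 to 6.22 in EV tumours.

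The other tissue isoforms of complex IV were at or near background. Cox8b, the heart and muscle isoform of subunit 8, was detected on 0 of 12 arrays. Cox8c, the testis isoform, was detected in 3 of 6 EGFRvIII and 0 of 6 EV tumours, at 4.55 to 4.86 in EGFRvIII and 4.36 to 4.67 in EV tumours, and was tested and called higher only when dim probes were not filtered. Cox8a, the general isoform, had the lowest estimate of all 58 members, -0.25 ± 0.15, and was not called (limma adjusted p = 0.251). Cox8a levels were 11.62, 12.24 and 12.44 (lowest, median, highest) in EGFRvIII and 11.87, 12.52 and 12.60 in EV tumours, so the groups overlapped. The estimate for Cox8a turned to 0.09 when arrays were scaled to the probes kept.

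Cox5a, a subunit on the matrix side, was the second gene of complex IV to be called. Its levels were 10.91, 11.57 and 11.59 (lowest, median, highest) in EGFRvIII tumours and 9.91, 10.89 and 11.03 in EV tumours. EGFRvIII rat 6 lay within the EV range and the other 5 above it. The change was 0.68 ± 0.19 (SE), or 1.60-fold, with a limma adjusted p of 0.019, and it was called under all 25 other settings. Cox5b, its neighbour in the complex, changed by 0.03 (95% interval -0.37 to 0.44).

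The remaining ubiquitous subunits of complex IV were not called with quantile normalization. Of these, Cox7a2l was called higher when arrays were scaled to the probes kept. Cox4i1, the general isoform of subunit 4, changed by -0.05 (95% interval -0.31 to 0.21), with a positive estimate of 0.25 when arrays were scaled to the probes kept. Cox7a2l, which links complexes III and IV into supercomplexes, changed by 0.18 (-0.08 to 0.45), and Cox7b by 0.12 (-0.14 to 0.37). The probe of Cox6c was dim, at 5.76 ± 0.19 in EGFRvIII and 5.87 ± 0.29 in EV tumours (SD, n = 6 each), against levels above 10 for the other ubiquitous subunits. Levels of different probes are not comparable as amounts.

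The ATP synthase had 13 tested genes, with a median change of 0.13. Of these, 1 was called higher (7.69%, against 11.1% of all genes) and 0 lower (against 10.4%). Atp5f1d encodes the delta subunit of the central stalk, which joins the catalytic head to the rotating ring. Its levels were 11.18, 11.59 and 11.73 (lowest, median, highest) in EGFRvIII tumours and 10.08, 10.99 and 11.10 in EV tumours. The groups did not overlap. The change was 0.70 ± 0.16 (SE), or 1.63-fold, with a limma adjusted p of 0.0083, and it was called under all 25 other settings. Atp5f1d and Sdhb were the 2 members whose groups did not overlap with EGFRvIII higher, against 5.63% of all genes tested.

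The subunits of the catalytic head and the gamma subunit were not called with quantile normalization, and Atp5f1a, Atp5f1b and Atp5f1c were called higher when arrays were scaled to the probes kept. Atp5f1b, the catalytic beta subunit, was at 13.17 ± 0.12 in EGFRvIII and 13.18 ± 0.09 in EV tumours (SD, n = 6 each), and its interval of -0.17 to 0.15 was the narrowest shown here. Atp5f1a, the alpha subunit, changed by 0.12 (-0.07 to 0.32), and Atp5f1c, the gamma subunit of the central stalk, by 0.20 (-0.07 to 0.47). The 3 genes for the ring of c subunits encode the same mature protein, and Atp5mc1, Atp5mc2 and Atp5mc3 changed by 0.14, 0.20 and 0.04. The probe of Atp5mc3 was close to background.

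In the peripheral stalk, which holds the head still, Atp5pf, Atp5po and Atp5pd changed by 0.31, 0.13 and 0.03, none of them called with quantile normalization. Atp5po was called higher when arrays were scaled to the probes kept. Among the small membrane subunits, Atp5mk and Atp5mg changed by 0.16 and 0.08. Atp5me had the lowest estimate of the ATP synthase, -0.12, with an interval of -0.60 to 0.36. Atp5f1d, Cox5a and Cox6a2 were thus called in every other setting that tested them, and Ndufs5 and Sdhb were not.

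**Figure D3:**
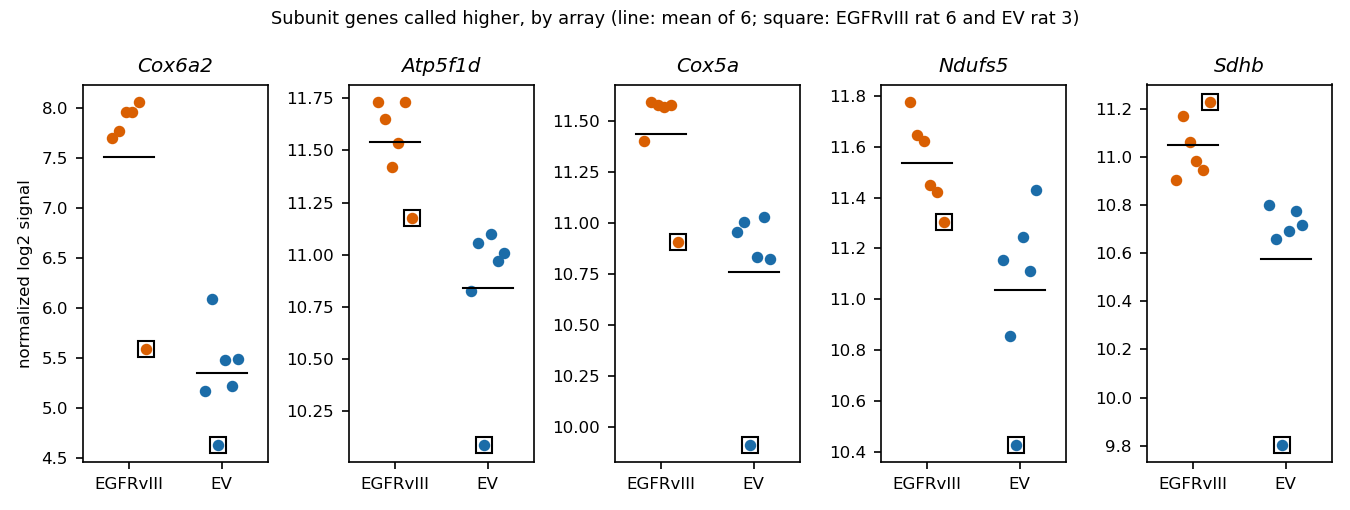
Normalized log2 signal (y axis) of the 5 subunit genes called higher, 1 panel per gene, with the 6 EGFRvIII tumours on the left and the 6 EV tumours on the right. Lines are group means, and squares mark EGFRvIII rat 6 and EV rat 3. The groups do not overlap for Atp5f1d and Sdhb, and EGFRvIII rat 6 falls among the EV tumours for Cox6a2 and Cox5a.

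The larger differences among the members were between single tumours within each group. EGFRvIII rat 6 and EV rat 3 were low in most oxidative phosphorylation genes. Each gene was centred on its mean over the 12 arrays and averaged over the 58 members. This mean was -0.28 in EGFRvIII rat 6, against 0.05 to 0.22 in the other 5 EGFRvIII tumours, and -0.51 in EV rat 3, against -0.04 to 0.09 in the other 5 EV tumours. Apart from these tumours, the means of the groups overlapped.

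Gene by gene, 16 of 58 members had the lowest of their 12 values in EGFRvIII rat 6 (27.6%, against 10.0% of all genes), and 32 in EV rat 3 (55.2%, against 15.6%). The other 10 had it elsewhere. Subunit genes are bright, and of all 2622 genes with a mean level above 9, 12.2% were lowest in EGFRvIII rat 6 and 23.1% in EV rat 3. Against the median of the other 5 tumours of its group, the median member was lower by a log2 value of 0.33 in EGFRvIII rat 6 (median -0.33, all genes -0.02) and by 0.53 in EV rat 3 (median -0.53, all genes 0.05). In 46 of 58 (79.3%) the gene was lower in both tumours, against 22.8% of all genes. Both tumours were singled out by these same member values, so the shares describe the pattern and do not test it.

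The same held under the other scalings. The members' median difference was -0.50 in EGFRvIII rat 6 and -0.51 in EV rat 3 when arrays were scaled to the median of all probes (all genes -0.10 and 0.12). It was -0.50 and -0.58 when they were scaled to the probes kept (all genes -0.04 and 0.01). In the authors' log2 values it was -0.37 and -0.58. Across the 58 members the difference in EGFRvIII rat 6 and that in EV rat 3 had a Pearson r of 0.58, and across all 11695 genes -0.22. This is a description over genes that share arrays and probes, not over independent samples.

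**Figure D4:**
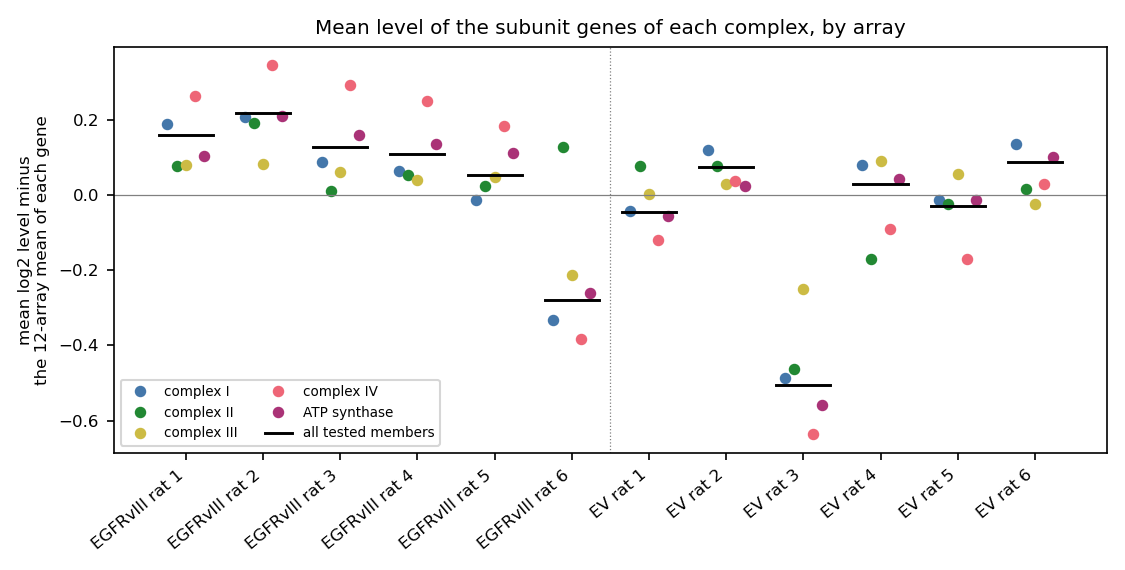
Mean level of the tested genes of each complex (y axis, log2 after subtracting each gene's 12-array mean) on each array (x axis), with EGFRvIII tumours on the left and EV tumours on the right. Black lines are means over all 58 members. The black lines of EGFRvIII rat 6 (-0.28) and EV rat 3 (-0.51) lie under all others, while complex II in EGFRvIII rat 6 does not. Cytochrome c, a single gene, is not drawn.

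Complex IV had a mean of -0.38 in EGFRvIII rat 6 and -0.64 in EV rat 3, and -0.33 and -0.49 without Cox6a2, whose centred values carry its difference between the groups. Complex I stood at -0.33 and -0.49, the ATP synthase at -0.26 and -0.56, and complex III at -0.21 and -0.25. The mean of complex II in EGFRvIII rat 6 was 0.13, within the range of 0.01 to 0.19 of the other EGFRvIII tumours, while it was -0.46 in EV rat 3. Sdhb had its highest value of all 12 arrays in EGFRvIII rat 6, 11.23, and its lowest in EV rat 3, 9.80.

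Among the members with the largest differences in these tumours were small accessory subunits. Ndufb7 stood lower than the median of the other 5 tumours by 1.11 and 1.07 (differences of -1.11 in EGFRvIII rat 6 and -1.07 in EV rat 3). Atp5me differed by -1.17 and -0.95, Ndufa5 by -1.06 and -0.95, Ndufb3 by -1.05 and -0.68, and Cox5b by -0.91 and -0.83. Cox6a2 differed by -2.36 and -0.85. Some catalytic and core subunits differed little in both tumours: Atp5f1b by -0.09 and -0.02, Atp5f1a by 0.10 and 0.08, Sdha by 0.11 and 0.05, and Uqcrc1 by -0.08 and 0.09. Others differed more in EV rat 3 than in EGFRvIII rat 6: Ndufs7 differed by -0.20 and -0.93, Ndufs8 by -0.20 and -0.79, Atp5f1c by -0.16 and -0.58, and Ndufv2 by -0.21 and -0.55. Sdhb differed by 0.25 and -0.91. Ndufs1, the largest core subunit of complex I, was lower in EGFRvIII rat 6 (-0.28) and higher in EV rat 3 (0.36). The median over the 20 accessory subunits of complex I was -0.61 in EGFRvIII rat 6 and -0.62 in EV rat 3, and over its 6 core subunits -0.21 and -0.46. These differences between roles were not tested.

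**Figure D5:**
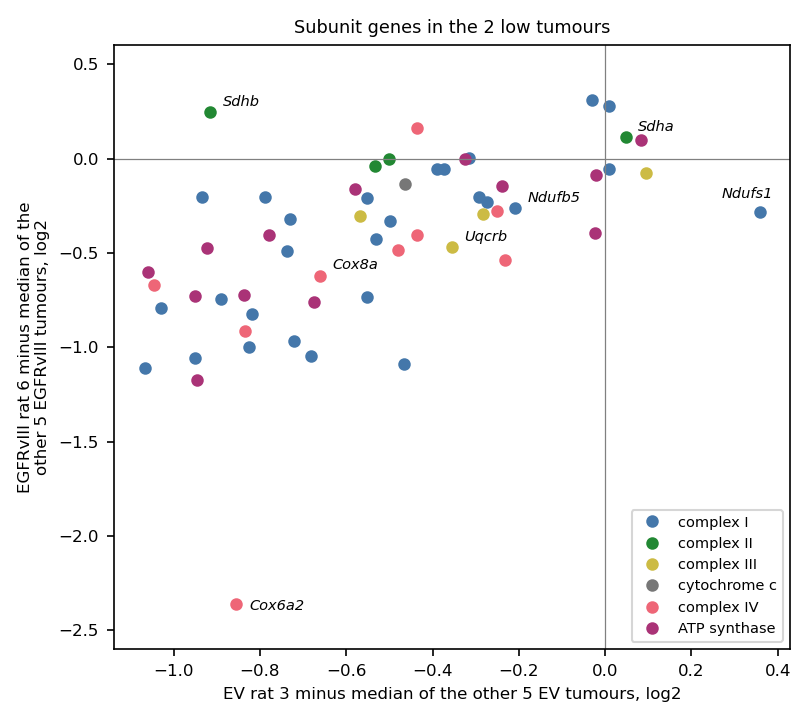
Each point is 1 of the 58 members, coloured by complex: its log2 level in EGFRvIII rat 6 (y axis) and in EV rat 3 (x axis), each minus the median of the other 5 tumours of the same group. Most points (46 of 58) are below 0 on both axes, Cox6a2 is lowest on the y axis, and Sdhb is above 0 in EGFRvIII rat 6 and far below 0 in EV rat 3.

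Markers of other cells were measured in the same tumours. Macrophage and microglia markers, centred in the same way, stood at 1.03 in EGFRvIII rat 6 (other EGFRvIII tumours -0.18 to 0.86) and at -1.69 in EV rat 3 (other EV tumours -0.49 to -0.12). Their mean was thus high in the first tumour and low in the second. In EV rat 3, all 12 markers were below the median of the other 5 EV tumours. In EGFRvIII rat 6, 3 of 12 were below that of the other 5 EGFRvIII tumours: Mrc1 (-1.58), Trem2 (-0.45) and Tyrobp (-0.15). Red blood cell markers were at -0.66 in EGFRvIII rat 6 (others -0.12 to 0.91) and -0.68 in EV rat 3 (others -0.71 to 0.56). Against the median of the other 5 tumours of the group, Hbb differed by -1.33 and -2.69 and Hbb-b1 by -1.20 and -2.15. Ahsp differed by -0.82 and -0.30, Epb42 by -0.09 and 0.29, and Slc4a1 by 0.05 and 0.07. The mean levels of Ahsp, Epb42 and Slc4a1 were dim, at 4.74 to 5.33. Neuron markers were at -0.72 and 0.29, inside the range of their groups. RNA quality was assessed per the labels, without values. The part of cell makeup or RNA quality in the low levels was not tested.

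Promoter letters were also set beside this pattern. Of the members with a window, 8 of 14 (57.1%) that were lowest in EGFRvIII rat 6 and 18 of 28 (64.3%) that were lowest in EV rat 3 had the NRF1, ETS or YY1 letters, against 8 of 9 lowest elsewhere (88.9%). Of the 5 members called higher, 2 had them (Ndufs5 and Sdhb, shown above).

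Other mitochondrial genes were listed by function to place the members. The 57 tested mitochondrial ribosomal proteins translate the subunits encoded in mitochondrial DNA. Among these lists of mitochondrial genes, they had the lowest centred mean in both EGFRvIII rat 6 and EV rat 3. Their centred mean was -0.16 in EGFRvIII rat 6 (others 0.08 to 0.24) and -0.44 in EV rat 3 (others -0.13 to 0.09). Of the 57, 66.7% had their lowest value in EV rat 3, against 15.6% of all genes. For EGFRvIII rat 6 the share was 12.3%, near the 10.0% of all genes and under the 27.6% of the members. In limma, 7 of the 57 were called higher (12.3%, near the 11.1% of all genes) and 0 lower (against 10.4%), with a median change of 0.14. Mrps24 rose by 0.80 ± 0.15 and was called under all 25 other settings. Mrpl54 (0.56), Mrpl28 (0.56) and Mrps34 (0.54) also passed but lost the call under 16, 10 and 12 of 25 settings. Cytosolic ribosomal proteins were low in the same tumours by less, at -0.12 in EGFRvIII rat 6 and -0.18 in EV rat 3.

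Assembly factors, which build the complexes without staying in them, had 32 tested genes, with a median change of 0.21. Called higher were 5 (15.6%, against 11.1% of all genes) and lower 1 (3.12%, against 10.4%). Lrpprc, which stabilises mitochondrial messenger RNAs, was at 11.45 ± 0.16 in EGFRvIII and 9.52 ± 0.28 in EV tumours (SD, n = 6 each). Its change of 1.94 ± 0.13 (limma) was second only to Cox6a2 among the genes of respiratory function described here. Higd1a, a small protein of the inner membrane, rose by 0.92 ± 0.18 and Ndufaf6, an assembly factor of complex I, by 0.59 ± 0.15, which lost its call under 2 of 25 settings. Surf1, needed to assemble complex IV, fell by 0.73 ± 0.10 on the log2 scale (change -0.73). Rises and falls thus stood side by side among these factors.

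The tricarboxylic acid cycle and the entry of pyruvate had 23 tested genes, 5 called higher (21.7%) and 1 lower (4.35%), with a median of 0.19. Shares of all genes were 11.1% and 10.4%. Idh2, the NADP-linked isocitrate dehydrogenase of mitochondria, rose by 1.01 ± 0.13, and Cs, citrate synthase, by 0.46 ± 0.13, which lost its call under 2 of 25 settings. Of the kinases that switch off pyruvate dehydrogenase, Pdk1 was called higher (change 0.84 ± 0.16) and Pdk2 lower (-0.97 ± 0.19). Fatty acid oxidation had 13 tested genes, 0 called higher and 4 lower (30.8%), with a median of -0.18. Cpt1a, the carnitine transferase that admits fatty acids to mitochondria, changed by -1.15 ± 0.19, Acadvl by -0.47 ± 0.12, Decr1 by -0.37 ± 0.12 and Acadl by -0.34 ± 0.09. The call of Decr1 was lost under 15 of 25 settings and that of Acadl under 1.

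Import, cristae and dynamics genes had 27 tested members, 7 called higher (25.9%) and 1 lower (3.7%), with a median of 0.28. Over all genes these shares were 11.1% and 10.4%. Timm13, an import chaperone, rose by 0.93 ± 0.21, Hspe1, a matrix co-chaperonin, by 0.90 ± 0.23, Mfn2, a fusion protein of the outer membrane, by 0.70 ± 0.13, and Lonp1, a matrix protease, by 0.69 ± 0.10. Hspe1 lost its call under 1 of 25 settings. Of 11 tested carriers and porins, 1 was called higher (9.09%) and 0 lower. The 1 was Vdac1, the main porin of the outer membrane, which rose by 0.34 ± 0.07. A further list outside the symbol rule had 10 tested genes: Coq genes of coenzyme Q, Etf genes, Dhodh and Ndufab1, with no complex III subunit. Of these 10, 0 were higher and 2 lower (20%): Coq9 changed by -0.41 ± 0.10 and Coq6 by -0.42 ± 0.14. Coq9 lost its call under 1 and Coq6 under 13 of 25 settings.

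Of 17 tested regulators of mitochondrial biogenesis, 1 was called higher and 1 lower (5.88% each, against 11.1% and 10.4% of all genes). Myc, a transcription factor, rose by 1.09 ± 0.27, and Yy1, whose letters are shown above, changed by -0.42 ± 0.12. Myc lost its call under 1 and Yy1 under 3 of 25 settings. Nrf1 (change -0.17, limma adjusted p = 0.327) and Gabpa (0.41, limma adjusted p = 0.132) were not called, and Nrf1 was near background at 4.91 in EGFRvIII and 5.09 in EV tumours. These 2 were named because their letters were searched.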

How the data were processed

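Tumour RNA was amplified into biotinylated cRNA and read on Illumina RatRef-12 arrays, per the labels' protocols. In the deposited table without normalization, each probe has a mean signal intensity on each array, some below 0, so the authors had already subtracted background. A deposited detection score between 0 and 1 was taken as the complement of a detection p. The authors' second table looks, by its values, like uncentred log2 signals after quantile normalization, higher for brighter probes, and its steps are not stated by the labels or headers. The submitters' processing notes list Partek, without a version or role.

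The intensities were processed with neqc of limma 3.58.1 (R 4.3.3), that is, normal-exponential background correction, an offset of 16, log2 and quantile normalization. A probe was kept if 6 or more of 12 arrays had its detection p below 0.05 (11862 of 22523), and a gene was represented by its brightest kept probe. The probe annotation, whose symbols can be old, gave 1 symbol to 13793 probes and none to 8730. Groups were compared with lmFit and eBayes (mean-variance trend, two-sided, 10 residual degrees of freedom), adjusted by Benjamini-Hochberg over 11695 genes, and the procedure was tested on simulated data. Intervals are 95%. No scan date or chip was given, so batches could not be sought.

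Named genes are all called members, the largest rise and fall in each complex, isoform genes, members with a tumour far from its group, and up to 4 called genes per list. Members not under this rule, muscle markers, Nrf1 and Gabpa were added after their values were seen. The members and gene lists were chosen with earlier results of these data known. Deviations from the group means of same-numbered rats correlated at -0.34 to -0.06, so the numbers did not pair the tumours. Alternatives were other scaling, background, filters, probe rules, variance models, the rat number as a block, the authors' values and arrays left out. Promoter windows and positions came from RefSeq (GRCr8). Motifs and figures used Python 3.11.15, pandas 2.3.3 and matplotlib 3.10.9.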

Additional observations from a re-analysis of the deposited data

Results flagged for a closer look

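A tumour was singled out where its gap to the nearest other tumour of its group, divided by the range of the group, was above Dixon's 95% critical value for 6 samples. Chance singles out about 1 in 20 groups, so about 5.8 of the 116 pairs of tested member and group, and 38 pairs from 32 members met it. Of these, 15 were low values in EGFRvIII rat 6, 20 were low values in EV rat 3, and 3 lay elsewhere. Genes on the same array vary together, so the pairs are not independent and the 5.8 is not a test. The share over all genes is not given here.

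In EGFRvIII rat 6 the log2 level was apart from the other 5 EGFRvIII tumours for complex I genes Ndufa11 (10.44), Ndufa12 (11.42), Ndufa6 (10.51), Ndufa7 (6.66), Ndufb7 (9.70), Ndufb8 (11.08) and Ndufc2 (10.19). In complexes III and IV it was apart for Uqcrb (12.24), Cox4i1 (11.65), Cox5a (10.91) and Cox6a2 (5.59). In the ATP synthase it was apart for Atp5mc2 (11.55), Atp5pd (9.76), Atp5pf (11.04) and Atp5mg (11.07). The fatty acid oxidation gene Decr1 (9.51) was also low there.

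In EV rat 3 it was apart from the other 5 EV tumours for complex I genes Ndufa1 (10.99), Ndufa12 (11.16), Ndufa5 (9.998), Ndufb6 (9.42), Ndufb9 (12.57), Ndufc2 (10.26), Ndufs7 (8.25), Ndufs8 (9.50) and Ndufv2 (10.30). In complexes II and III it was apart for Sdhb (9.80), Uqcrfs1 (11.62) and Uqcrh (12.20), and in complex IV for Cox5a (9.91), Cox5b (10.19) and Cox8a (11.87). In the ATP synthase it was apart for Atp5f1c (10.70), Atp5f1d (10.08), Atp5pd (9.56), Atp5pf (10.27) and Atp5mg (11.09). Hspe1 (8.04) and Mrpl54 (9.31), outside the members, were also low there.

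The centred means singled out the same tumours. Over all members the mean was -0.28 in EGFRvIII rat 6 and -0.51 in EV rat 3, over the ATP synthase -0.26 and -0.56, over complex IV -0.38 and -0.64, and over complex III -0.21 and -0.25. The mean of complex I was -0.49 in EV rat 3. Elsewhere, Ndufb4 was low in EGFRvIII rat 5 (4.46), Ndufa10 was high in EV rat 2 (10.09), Ndufb5 was high in EV rat 4 (12.61) and Decr1 was high in EV rat 6 (10.66). The cause of these values was not tested.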

How the results depend on the processing

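Of the 5 called members, Atp5f1d and Cox5a kept their call under all 25 other settings and Cox6a2 under all 24 that tested it. With the rat number as a replicate block, 3 members were called higher (all genes 8.07%, with 944 called higher and 875 lower). Without EV rat 2 and EGFRvIII rat 1, 3 were called higher (all genes 9.49%). When each tumour was left out in turn, 3 to 6 were called higher (all genes 8.49% to 11.2%). It was 3 without EGFRvIII rat 2 and 3 without EGFRvIII rat 3. With arrays scaled to the probes kept, 17 were called higher (all genes 18.4%). The block fit changed the calls of Ndufs5 and Sdhb (no longer past the threshold). Members called lower were 1, Cox8a, without EV rat 3 and EGFRvIII rat 6 (all genes 9.56%). All genes called higher were 768 with scaling to the median of all probes and 2157 with scaling to the probes kept. The median of all genes was -0.077 and 0.11 under these scalings, -0.00392 with signals floored at 16 and -0.00114 without EV rats 2 and 3. Scaling to the probes kept moved the members' median to 0.30, the ATP synthase to 0.42, complex II to 0.33, complex III to 0.30 and complex IV to 0.42. The members' median was -0.0028 without EV rat 3 and 0.15 without EGFRvIII rat 6. No called value changed sign. Scaling to the probes kept and leaving out EV rat 3 with EGFRvIII rat 6 were chosen after seeing the data. The causes were not tested. Probes near the offset, such as Ndufb4, Atp5mc3 and Cox8c, cannot show small changes.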
